A study of Homo sapiens with 12 samples.

Results

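The genes described here are the human mitochondrial ribosomal protein genes, taken as every protein-coding row of the deposited count table whose symbol begins with MRPL or MRPS followed by a digit. The rule found 78 genes among the 60666 rows, 49 with a symbol of the large subunit (MRPL) and 29 with a symbol of the small subunit (MRPS). It left out 79 pseudogene rows and 7 non-coding rows with a similar symbol. RNA came from 3 established lines of human multiple myeloma, named KMS-11, KMS-12 and RPMI8226 and all labelled wild type. Each line was grown for 72 h with 1 µM JQ1 or with an equal volume of its solvent DMSO, and each of the 6 groups has 2 libraries, 12 in all. Each line is a culture derived from a single tumour. Whether the 2 libraries of a group are separate cultures is not stated in the labels. A p-value here therefore reflects library-to-library spread alone, and that spread may be technical.

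The mitochondrial ribosome sits in the mitochondrial matrix and translates the messages of mitochondrial DNA, which encode core subunits of the respiratory chain and ATP synthase. Its ribosomal RNAs are made inside the organelle, but all of its proteins are encoded in the nucleus, translated in the cytosol and imported. The large subunit forms peptide bonds and is anchored at the inner membrane, and the small subunit binds and decodes the messages. JQ1 displaces the BET proteins from acetylated chromatin, where they help RNA polymerase II to elongate. Myeloma cells are malignant plasma cells that secrete or retain large amounts of immunoglobulin, and respiration supplies part of the energy this takes.

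Library totals ran from 15424512 to 27366499 counts. All 78 members passed the filter on low counts, as did 23493 of all rows (38.7%). Expression is given as CPM, read counts scaled to a common library total, with TMM factors that line up the bulk of genes between libraries. The noncoding RNA MALAT1 took 3.61% to 9.01% of counts in the DMSO libraries, and with JQ1 it took 25.7% and 25.8% in KMS-12, 14.5% and 16.5% in KMS-11 and 6.31% and 6.56% in RPMI8226. Its part in the results below was not tested beyond the change of scaling given with them. Of 9 plasma cell markers, CD38 was near 0 in KMS-11 (0.600 CPM with DMSO) and POU2AF1 was low in KMS-12 (5.82 CPM), and the others with DMSO lay at 7.34 CPM (SLAMF7 in RPMI8226) or more. Under JQ1 the 9 gave 4 lower and 4 higher in KMS-12 (median log2 change 0.15), 3 and 2 in KMS-11 (median -0.20) and 5 and 0 in RPMI8226 (median -0.72). Their summed CPM went from 2283 ± 10.8 to 4001 ± 43.3 in KMS-12, from 2852 ± 61.0 to 2582 ± 563 in KMS-11 and from 3347 ± 320 to 2530 ± 205 in RPMI8226 (SD, n = 2 each). These marker values depend on the TMM factors. Scaled by library size alone, the 9 gave 4 lower and 1 higher in KMS-12 (median -0.62, beside -0.82 for all genes). On that scale KMS-11 gave 5 and 2 (median -0.46) and RPMI8226 5 and 0 (median -0.75). The markers of T, myeloid, fibroblast, epithelial and erythroid cells, 15 genes, summed to between 35.8 and 70.3 CPM in DMSO libraries and between 6.71 and 52.8 CPM in JQ1 libraries. Of the 15, 8 passed the filter on low counts, EPCAM and KRT18 made up most of these sums, and HBB had no reads in any library. The part of both marker lists in the results was not tested.

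Without JQ1, most members differed in level between the lines, as did most genes, and KMS-12 was the line in which members were most often highest. Levels are compared between genes per kilobase of exon. The median large-subunit gene stood at 10.3 CPM per kb in KMS-12, 8.37 in KMS-11 and 7.78 in RPMI8226. The median small-subunit gene stood at 8.55, 8.47 and 11.7 in the same order. In edgeR's quasi-likelihood F test with Benjamini-Hochberg adjustment, the DMSO level differed between the lines for 67 of 78 members (42 of 49 large, 25 of 29 small), against 80.2% of all genes tested. The mean level was highest in KMS-12 for 42 members, in KMS-11 for 20 and in RPMI8226 for 16, while over all genes tested it was highest there for 34.7%, 32.5% and 32.8%.

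The highest mean level per kb over the lines was that of MRPS18B (43.9 CPM per kb), a small-subunit homologue of bacterial S18. MRPS21, the homologue of bacterial S21, followed with 29.4, and MRPL3, a protein that reaches towards the peptidyl transferase centre, with 27.8. MRPS21 (ENSG00000266472, GRCh38 chr1:150293720-150308979, plus strand) had 8.48 and 7.70 CPM in the KMS-11 DMSO libraries. It had 66.1 and 68.4 CPM in KMS-12 and 71.5 and 67.2 in RPMI8226. The level in KMS-11 thus lay far below both other lines, with no overlap. On the log2 scale KMS-12 was higher than KMS-11 by 3.05 ± 0.11 (SE of the fit, n = 2 libraries a group, edgeR adjusted p = 9.41e-14), while RPMI8226 and KMS-12 differed by 0.05 ± 0.10 (edgeR adjusted p = 0.715). The lowest levels were those of MRPL53 (0.436 CPM per kb), MRPS24 (0.592) and MRPL46 (1.13). A level per kb is divided by all annotated exon bases of the gene. How reads shared with an overlapping gene were counted is not known. MRPL53 lay between 0.248 and 1.02 CPM in the DMSO libraries, so its values carry wide counting error. In these libraries 3 counts correspond to at most 0.162 CPM before TMM scaling. MRPL45, which ties the ribosome to the inner membrane and was chosen after its values were seen, had 13.8 and 14.7 CPM in KMS-11, 25.3 and 24.9 in RPMI8226 and 46.6 and 48.4 in KMS-12, an order in which each neighbour differed from the next (largest edgeR adjusted p of the 3 pairs 2.57e-05).

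**Figure D1:**
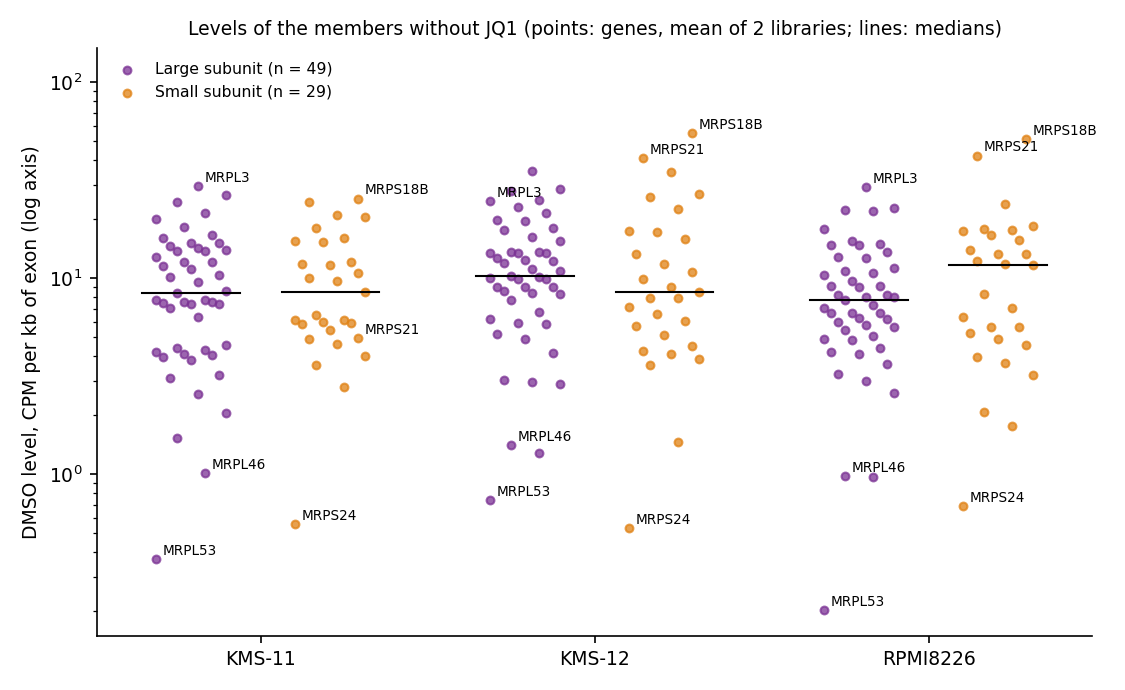
Level of each member in the DMSO libraries (vertical log axis, CPM per kb of exon) by line, with large-subunit genes on the left and small-subunit genes on the right of each pair and lines at the medians. MRPS21 sits at 4.93 CPM per kb in KMS-11 and at 41.0 and 42.3 in KMS-12 and RPMI8226.

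JQ1 changed the members in both directions, more of them downwards. Averaged over the lines, 34 of 78 members were lower and 11 higher under JQ1 (edgeR quasi-likelihood test, p under 0.05 after Benjamini-Hochberg adjustment). Over all genes tested, 26.7% were called lower and 22.3% higher. The median log2 change of the members was -0.13, beside -0.10 for all genes tested. In bulk RNA, fewer cells of a type and less RNA per cell cannot be told apart. Most members are well expressed genes: among the 10210 genes with a mean of at least 10 CPM, the shares were 36.2% lower and 34.4% higher, and of the 69 members in that set 38 were lower and 8 higher. The medians in that set were -0.25 for the members and -0.02 for all its genes, a gap of -0.23. The split depends on scaling, since with library size alone 62 members were lower and 0 higher, while 44.1% and 9.01% of all genes were. With it the median of all genes was -0.43 and that of the members -0.49, so that the gap over all genes tested went from -0.03 to -0.05. On the TMM scale, 20 members were called in none of the 3 lines, against 33.4% of all genes.

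The number of members called was largest in KMS-12. In KMS-11, 19 members were lower and 10 higher, against 21.2% and 17.3% of all genes. KMS-12 had 40 lower and 5 higher, against 25.7% and 20.2%. In RPMI8226, 16 were lower and 6 higher, against 18.6% and 13.6%. On the log2 scale the median member changed by -0.28 in KMS-12, by -0.06 in KMS-11 and by -0.05 in RPMI8226, beside -0.06, 0.00 and -0.03 for all genes. Among genes with a mean of at least 10 CPM the gap to all genes was -0.36 in KMS-12, -0.14 in KMS-11 and -0.19 in RPMI8226. Relative to all genes the KMS-12 median was -0.23 with TMM and also -0.23 with library size alone, although the counts then became 71 lower and 0 higher (54.4% and 4.41% of all genes). With library size alone KMS-11 gave 37 lower and 2 higher (30.4% and 9.5% of all genes), and RPMI8226 19 and 6 (19.5% and 12.7%).

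These counts were sensitive to single libraries. In KMS-12, 22 members were lower without DMSO replicate 1, 23 without JQ1 replicate 1 and 25 without JQ1 replicate 2, and 3 were higher without DMSO replicate 2. Leaving out either KMS-11 DMSO library also raised the number of higher calls in KMS-12, although that line kept all its libraries. Each such fit redid the filter, scaling, spread and adjustment, and their parts were not told apart. In KMS-11, 11 were lower without JQ1 replicate 1 and 4 higher without JQ1 replicate 2. In RPMI8226, 9 were lower without DMSO replicate 1 or without JQ1 replicate 1, and 10 without JQ1 replicate 2. Higher calls in RPMI8226 fell to 1 without DMSO replicate 1, 3 without DMSO replicate 2 and 4 without either JQ1 library. Counting libraries instead of calls, both JQ1 libraries lay below both DMSO libraries for 51 members in KMS-12 (40.6% of all genes), 32 in KMS-11 (33.5%) and 32 in RPMI8226 (35.7%). Both lay above for 14 (31.6%), 21 (30.0%) and 18 (30.1%), in the same order of lines.

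A set of members was lower in every line, and none was higher in every line. Called lower in all 3 lines were 10 members, against 6.37% of all genes: MRPL3, MRPL9, MRPL11, MRPL15, MRPL19, MRPL23, MRPL34, MRPL45, MRPS15 and MRPS18B. Called higher in all 3 lines were 0 members, against 6.04% of all genes. The 10 became 6 without RPMI8226 DMSO replicate 1, and 17 with library size alone. MRPL3, MRPS15 and MRPS18B were lower in all 3 lines under each of 21 alternative settings, MRPL19 under 10 of them and MRPL23 under 8. Another 29 members were lower in exactly 1 line (21.8% of all genes) and 8 in exactly 2 (12.3%).

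**Figure D2:**
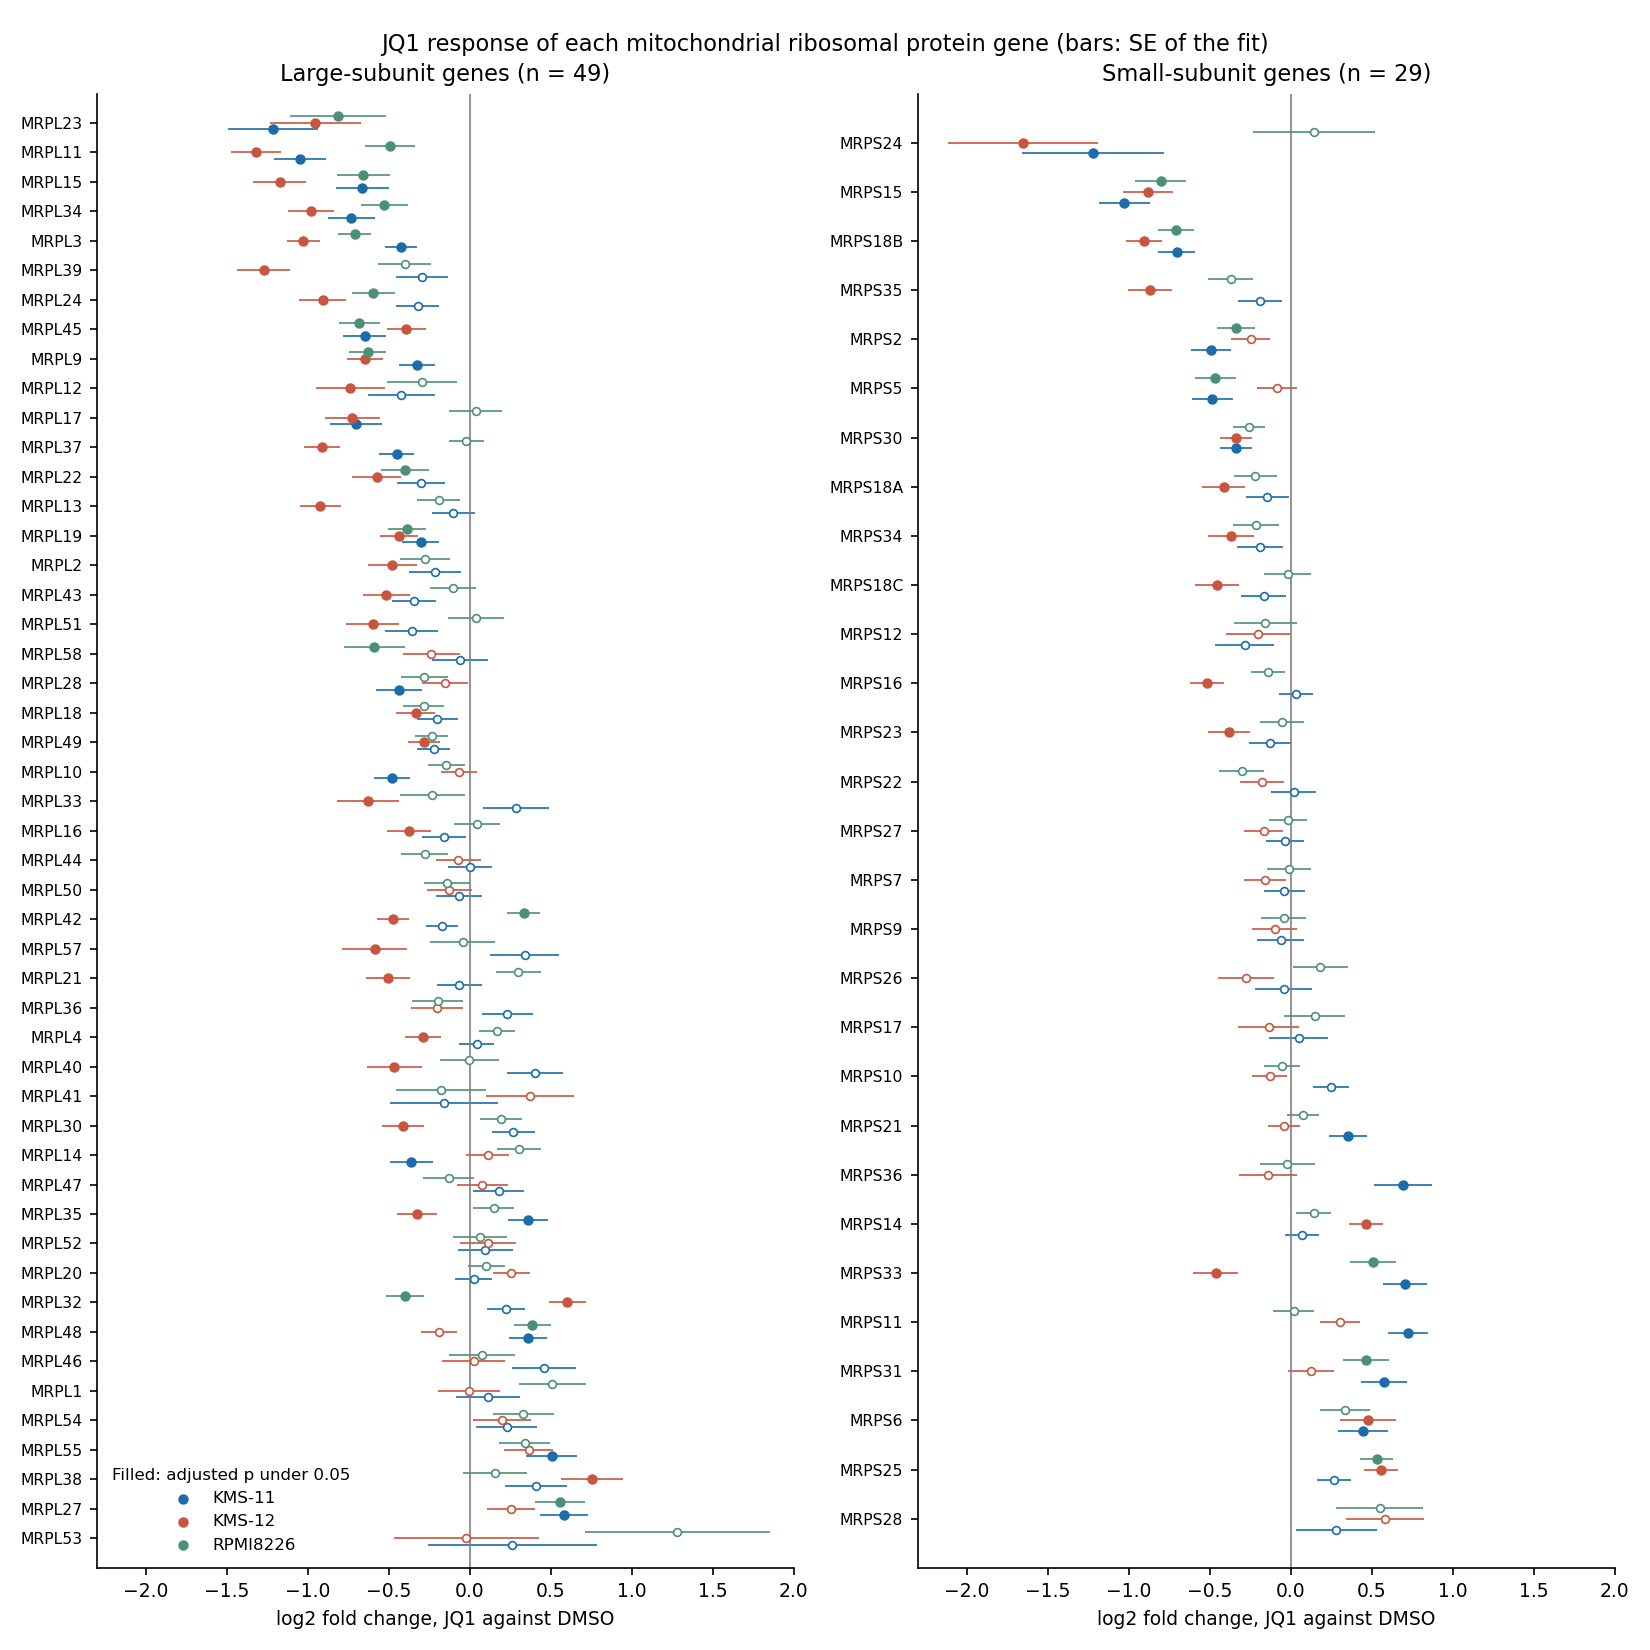
Log2 fold change of JQ1 against DMSO (horizontal axis) for each of the 49 large-subunit and 29 small-subunit genes, ordered by the average of the lines, with 1 point per line (KMS-11 blue, KMS-12 red, RPMI8226 green), bars for the SE of the fit and filled points for an edgeR adjusted p under 0.05. Red points of KMS-12 are filled on the negative side for 40 genes, and MRPS33, MRPL32, MRPL42 and MRPL35 have filled points on both sides of 0.

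The median change of the large-subunit genes was lower than that of the small-subunit genes in each line. In the average of the lines 23 of 49 large-subunit members were lower and 4 higher (median log2 change -0.16), while of 29 small-subunit members 11 were lower and 7 higher (median -0.07). In KMS-12 the counts were 29 lower and 2 higher for the large subunit (median -0.37) and 11 and 3 for the small (median -0.18). KMS-11 gave 13 and 4 (median -0.16) against 6 and 6 (median -0.04), and RPMI8226 12 and 3 (median -0.14) against 4 and 3 (median -0.02). Of all genes tested, 26.7% were lower and 22.3% higher in the average (median -0.10), and 25.7% and 20.2% in KMS-12 (median -0.06). The shares were 21.2% and 17.3% in KMS-11 (median 0.00) and 18.6% and 13.6% in RPMI8226 (median -0.03). The difference of the medians, large minus small, was -0.19 ± 0.04 in KMS-12, -0.12 ± 0.04 in KMS-11 and -0.12 ± 0.08 in RPMI8226 (SD over the 4 pairings of a JQ1 with a DMSO library of the line). It became -0.11 in KMS-12 without KMS-12 JQ1 replicate 2. In RPMI8226 it was -0.19 without DMSO replicate 2, -0.05 without DMSO replicate 1, -0.07 without JQ1 replicate 1 and -0.06 without JQ1 replicate 2. In the average of the lines it was -0.09 ± 0.05 (SD over the 64 ways to combine the pairings of the 3 lines), and it narrowed to -0.04 without KMS-11 JQ1 replicate 1, to -0.03 without KMS-12 DMSO replicate 1, KMS-12 JQ1 replicate 1 or RPMI8226 JQ1 replicate 2, and to -0.05 without KMS-11 DMSO replicate 2 or RPMI8226 JQ1 replicate 1. The pairings reuse the same libraries and were taken from CPM, while the differences come from the fit. Their SD is thus no measure of independent replication. In RPMI8226 single pairings ran from -0.18 to -0.0053. Members are not replicates, so no test was made of these medians.

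The ratio of summed large-subunit to summed small-subunit CPM does not depend on the scaling of a library. It was 1.32 and 1.34 in the KMS-11 DMSO libraries and 1.21 and 1.19 under JQ1. The corresponding pairs were 1.47 and 1.44 against 1.29 and 1.30 in KMS-12, and 1.07 and 1.07 against 1.03 and 1.04 in RPMI8226. In all 3 lines both JQ1 libraries thus lay below both DMSO libraries, with means of 1.326 ± 0.013 and 1.199 ± 0.0098 in KMS-11 and of 1.454 ± 0.017 and 1.293 ± 0.0096 in KMS-12. The gap was smaller in RPMI8226 (1.069 ± 0.0029 against 1.034 ± 0.0032, SD, n = 2 each). The ratio also separated the lines, with every RPMI8226 library below every library of the KMS lines. The summed level of all members was 2485 ± 39.4 CPM with DMSO and 2027 ± 22.7 with JQ1 in KMS-12, 2041 ± 16.8 against 1921 ± 66.4 in KMS-11 and 2068 ± 1.17 against 1945 ± 1.39 in RPMI8226 (SD, n = 2 each). Unlike the ratio, these sums depend on the TMM factors. As a share of raw counts the members went from 0.305% to 0.146% in KMS-12 (group means). The share went from 0.217% to 0.170% in KMS-11 and from 0.228% to 0.210% in RPMI8226.

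**Figure D3:**
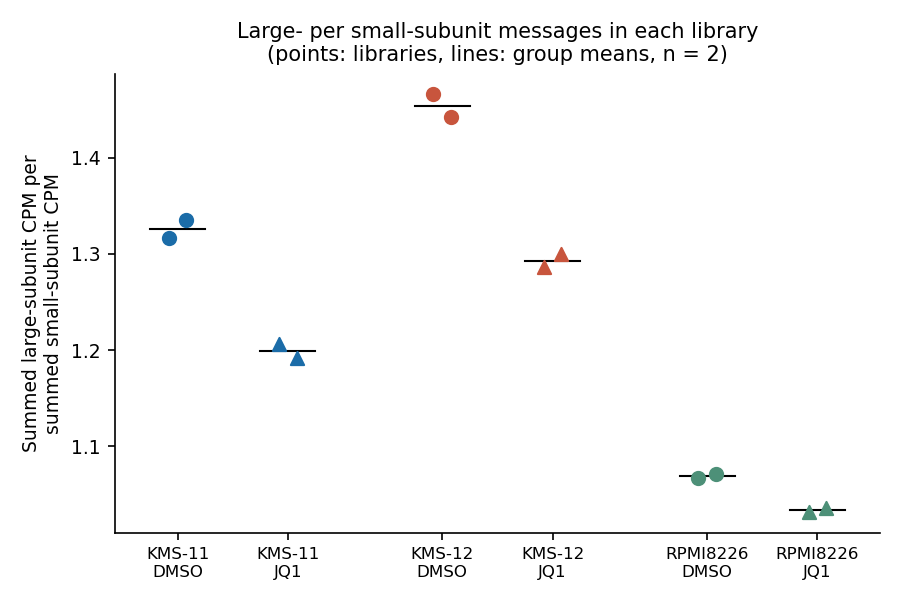
Summed CPM of the 49 large-subunit genes per summed CPM of the 29 small-subunit genes (vertical axis, which does not start at 0) in each of the 12 libraries, with DMSO as circles, JQ1 as triangles and group means as lines. Within each line both JQ1 libraries lie below both DMSO libraries, with group means of 1.454 and 1.293 in KMS-12, 1.326 and 1.199 in KMS-11 and 1.069 and 1.034 in RPMI8226.

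Structures of the human mitochondrial ribosome place 2 proteins with MRPS symbols, MRPS18A and MRPS30, in the large subunit, and MRPS36 is a component of the 2-oxoglutarate dehydrogenase complex. Moved accordingly, 25 of 51 large-subunit genes were lower and 4 higher in the average (median -0.19) and 9 of 26 small-subunit genes lower and 7 higher (median -0.07). Of all genes tested, 26.7% were lower and 22.3% higher (median -0.10). MRPS18A was lower by a log2 change of -0.26 ± 0.08 (edgeR adjusted p = 0.00924) and MRPS30 by -0.31 ± 0.06 (edgeR adjusted p = 0.00016). MRPS30 had 69.9 and 61.4 CPM with DMSO and 51.8 and 52.2 with JQ1 in KMS-11, 58.4 and 53.3 against 45.6 and 42.9 in KMS-12, and 99.2 and 94.9 against 80.3 and 82.2 in RPMI8226. Its JQ1 libraries lay below its DMSO libraries in every line. MRPS36 was at 6.81 and 8.22 CPM with DMSO and 11.1 and 13.2 with JQ1 in KMS-11, without overlap. In KMS-12 both JQ1 libraries (6.92 and 7.37) lay below the DMSO libraries (7.95 and 7.79), and in RPMI8226 the groups overlapped. It was higher in KMS-11 (0.69 ± 0.18, edgeR adjusted p = 0.00431, 0.0578 without KMS-11 JQ1 replicate 2) and its average change of 0.18 ± 0.10 did not pass the test (edgeR adjusted p = 0.165), turning to -0.17 with library size alone.

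MRPL23 and MRPL11 fell most of all the large-subunit genes, by the average over lines. MRPL11 (ENSG00000174547, GRCh38 chr11:66435075-66466738, minus strand) encodes the protein at the base of the stalk that recruits translation factors. It had 17.7 and 19.7 CPM with DMSO against 8.42 and 9.70 with JQ1 in KMS-11, 33.0 and 35.0 against 13.6 and 13.6 in KMS-12, and 22.9 and 17.7 against 13.6 and 15.3 in RPMI8226. All JQ1 libraries were below the DMSO libraries of their line, and the average log2 change was -0.95 ± 0.09 (edgeR adjusted p = 7.95e-08), a fall to 0.517 of the DMSO level. MRPL11 fell less in RPMI8226 than in KMS-12 (difference of the changes 0.83 ± 0.22, edgeR adjusted p = 0.00958). MRPL23 (ENSG00000214026, chr11:1947278-1984522, plus strand), a protein at the exit of the peptide tunnel, was a low gene. Its levels were 4.88 and 4.26 CPM against 2.24 and 1.68 in KMS-11, 4.24 and 3.35 against 1.72 and 2.21 in KMS-12, and 2.91 and 2.85 against 1.83 and 1.43 in RPMI8226. The groups did not overlap in any line, with an average change of -0.99 ± 0.16 (edgeR adjusted p = 6.07e-05). In RPMI8226 alone MRPL23 changed by -0.81 ± 0.30 (edgeR adjusted p = 0.0444). That call held under 8 of 20 alternatives. It was lost without any 1 of the RPMI8226 or KMS-12 libraries (edgeR adjusted p from 0.0534 to 0.218), with no filter beyond 1 read (0.0780), with library size without MALAT1 and NEAT1 (0.0528), and with DESeq2 (0.0893) or limma-voom (0.0536). Its KMS-12 call did not hold when DMSO replicate 1 (0.103) or JQ1 replicate 1 (0.108) of that line was left out. The RPMI8226 call of MRPL11 was lost without RPMI8226 DMSO replicate 1 (edgeR adjusted p = 0.287) or JQ1 replicate 1 (0.157).

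MRPL15, homologous to bacterial L15, had 15.8 and 18.3 CPM against 9.51 and 12.1 in KMS-11, 21.5 and 20.4 against 8.58 and 9.998 in KMS-12, and 16.2 and 16.3 against 10.5 and 10.1 in RPMI8226. Each line was lower without overlap, and the average change was -0.83 ± 0.09 (edgeR adjusted p = 8.34e-07), although the KMS-11 call was lost without KMS-11 JQ1 replicate 1 (0.0686). MRPL3 had 82.5 and 77.9 CPM against 62.1 and 57.4 in KMS-11, 67.3 and 67.7 against 33.0 and 33.3 in KMS-12, and 75.1 and 82.7 against 44.6 and 52.1 in RPMI8226. This abundant member fell in each line, by -0.42 ± 0.10, -1.03 ± 0.10 and -0.71 ± 0.10 (edgeR adjusted p = 0.00278, 3.17e-07 and 4.46e-05), and by -0.72 ± 0.06 on average (edgeR adjusted p = 1.29e-08). Of the other large-subunit members lower in all 3 lines, MRPL34 changed on average by -0.74 ± 0.08, MRPL45 by -0.57 ± 0.07, MRPL9 by -0.53 ± 0.07 and MRPL19 by -0.37 ± 0.07. Single-line calls were lost for MRPL34 in RPMI8226 without DMSO replicate 1 (edgeR adjusted p = 0.0768) or JQ1 replicate 2 (0.0924) of that line. The same held for MRPL45 in KMS-12 without either KMS-12 DMSO library or JQ1 replicate 1 (0.0554 to 0.157), and for MRPL9 in KMS-11 without either KMS-11 JQ1 library or DMSO replicate 2 (0.0878 to 0.126). The KMS-11 call of MRPL19 was lost under 10 alternatives (edgeR or DESeq2 adjusted p up to 0.334), its KMS-12 call on leaving out DMSO replicate 1 or JQ1 replicate 2 of that line (0.0625 and 0.0684), and its RPMI8226 call without either RPMI8226 DMSO library or JQ1 replicate 1 (0.0570 to 0.172). MRPL34, MRPL9 and MRPL19 are homologues of bacterial proteins, and MRPL45 has no bacterial counterpart. MRPL39, a further protein without one, had 26.6 and 28.9 CPM with DMSO and 11.4 and 11.6 with JQ1 in KMS-12, its largest change (-1.27 ± 0.16, edgeR adjusted p = 4.61e-06). In KMS-11 and RPMI8226 its changes of -0.29 ± 0.16 and -0.40 ± 0.16 did not pass the test (edgeR adjusted p = 0.166 and 0.0683). Without KMS-11 DMSO replicate 1 both passed (0.0273 and 0.0312), and the RPMI8226 change also did without KMS-11 DMSO replicate 2 (0.0247), with RLE scaling (0.0477), with the replicate block (0.0326) and among genes with a mean of at least 10 CPM (0.0246). Both passed with library size alone.

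MRPL12 is the mobile stalk protein of the large subunit and is also known to bind the mitochondrial RNA polymerase. It had 16.7 and 14.5 CPM against 11.8 and 11.4 in KMS-11, 13.8 and 10.8 against 6.97 and 7.79 in KMS-12, and 10.6 and 8.19 against 9.19 and 6.0 in RPMI8226, where the groups overlapped. On average it was lower by -0.48 ± 0.12 (edgeR adjusted p = 0.00288). Another gene annotated on the same strand covers 68.2% of its exon bases, so its reads cannot be assigned with certainty. MRPL58, a peptidyl-tRNA hydrolase built into the large subunit, changed by -0.29 ± 0.10 (edgeR adjusted p = 0.0236). Its call was lost without any 1 of KMS-11 JQ1 replicate 1, KMS-11 DMSO replicate 2, KMS-12 JQ1 replicate 1, KMS-12 DMSO replicate 2, RPMI8226 DMSO replicate 1 or RPMI8226 JQ1 replicate 1 (edgeR adjusted p from 0.0531 to 0.0909). MRPL44, which carries a double-stranded RNA binding fold, gave -0.11 ± 0.08 on average and did not pass the test (edgeR adjusted p = 0.273), although it did with library size alone (-0.47), with library size without MALAT1 and NEAT1 (-0.23) and among genes with a mean of at least 10 CPM (-0.17, edgeR adjusted p = 0.0472).

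The large-subunit genes that rose on average were MRPL27, MRPL38, MRPL48 and MRPL55. MRPL27, whose bacterial homologue L27 lies next to the peptidyl transferase centre, had 18.4 and 20.0 CPM against 26.0 and 31.5 in KMS-11. It had 14.3 and 15.4 against 15.8 and 19.6 in KMS-12, and 12.2 and 12.6 against 18.3 and 18.2 in RPMI8226. Every JQ1 library was above the DMSO libraries of its line, with an average change of 0.46 ± 0.09 (edgeR adjusted p = 0.000204). The KMS-11 call for MRPL27 (0.58 ± 0.15, edgeR adjusted p = 0.00442) was lost without KMS-11 JQ1 replicate 2 (0.0753), and the RPMI8226 call (0.56 ± 0.15, 0.00956) without RPMI8226 DMSO replicate 1 (0.0652), DMSO replicate 2 (0.0517) or JQ1 replicate 1 (0.0517). MRPL38 and MRPL55, both without a bacterial counterpart, changed by 0.44 ± 0.11 (edgeR adjusted p = 0.00292) and 0.40 ± 0.09 (edgeR adjusted p = 0.000997). In KMS-12 MRPL38 went from 12.9 and 8.74 to 17.6 and 18.9 CPM (0.76 ± 0.19, edgeR adjusted p = 0.0033, 0.0810 without KMS-12 DMSO replicate 2), which with library size alone turned to -0.012. Other genes on the same strand cover 37.5% of the exon bases of MRPL38. With library size alone none of these rises in the average passed the test.

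Among small-subunit genes, MRPS15 and MRPS18B fell in all 3 lines. MRPS15 (ENSG00000116898, chr1:36455718-36464437, minus strand), homologous to bacterial S15, had 28.3 and 42.0 CPM against 15.7 and 18.8 in KMS-11, 52.9 and 47.6 against 26.8 and 27.8 in KMS-12, and 39.6 and 37.7 against 21.1 and 23.3 in RPMI8226. MRPS18B (ENSG00000204568, chr6:30617709-30626395, plus strand) had 53.1 and 43.2 against 26.9 and 32.3, 104 and 103 against 56.0 and 54.7, and 98.4 and 95.3 against 57.2 and 61.2 in the same order. Neither gene's groups overlapped in any line, and the average changes were -0.90 ± 0.09 (edgeR adjusted p = 1.8e-07) and -0.77 ± 0.06 (edgeR adjusted p = 1.65e-08). MRPS18C, the remaining S18 homologue of the small subunit, changed by -0.21 ± 0.08 (edgeR adjusted p = 0.036), and its call was lost without any 1 of 10 of the 12 libraries (edgeR adjusted p up to 0.114). MRPS2, homologous to bacterial S2, was lower by -0.36 ± 0.07 (edgeR adjusted p = 0.000271).

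MRPS24 (ENSG00000062582, chr7:43866558-43869893, minus strand), homologous to bacterial S3 at the entry of the message channel, was the lowest small-subunit gene per kb. It had 1.35 and 1.55 CPM against 0.571 and 0.673 in KMS-11 and 1.39 and 1.38 against 0.454 and 0.421 in KMS-12, without overlap. In RPMI8226 it had 1.78 and 1.82 against 2.72 and 1.19, and the groups overlapped. It was lower on average (-0.91 ± 0.25, edgeR adjusted p = 0.00507), in KMS-11 (-1.22 ± 0.44, 0.0355) and in KMS-12 (-1.65 ± 0.46, 0.00704). The KMS-11 call of MRPS24 was lost without any 1 KMS-11 library (edgeR adjusted p from 0.0576 to 0.170) and with DESeq2 (0.0970) or limma-voom (0.0505), and the KMS-12 call without KMS-12 JQ1 replicate 2 (0.0524). The readthrough gene URGCP-MRPS24 covers 23.2% of its exon bases on the same strand.

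The small-subunit genes with the largest average rises were MRPS28, MRPS25 and MRPS6, though with library size alone the KMS-12 changes of MRPS25 (-0.21) and MRPS6 (-0.29) were negative. Exons of other genes on either strand cover 22.2% of the exon bases of MRPS25 and 9.61% of those of MRPS6. MRPS25, without a bacterial counterpart, had 90.9 and 74.2 CPM against 95.6 and 103 in KMS-11, 72.0 and 71.0 against 103 and 107 in KMS-12, and 93.8 and 106 against 147 and 141 in RPMI8226. Its JQ1 libraries were the higher in every line, with an average change of 0.45 ± 0.06 (edgeR adjusted p = 5.09e-06). MRPS6, homologous to bacterial S6, changed by 0.42 ± 0.09 (edgeR adjusted p = 0.000977). Its KMS-12 call (0.48 ± 0.17, edgeR adjusted p = 0.0292) was lost without KMS-12 DMSO replicate 2 (0.204), without KMS-12 JQ1 replicate 2 (0.251) and with limma-voom (0.0643). MRPS28 lay between 2.96 and 9.996 CPM and changed by 0.47 ± 0.15 (edgeR adjusted p = 0.0117, 0.0700 without RPMI8226 JQ1 replicate 2), and other genes on its strand cover 35.8% of its exon bases. MRPS31 rose in KMS-11 (0.58 ± 0.14, edgeR adjusted p = 0.00385) and in RPMI8226 (0.46 ± 0.14, 0.0197), the latter call being lost without any 1 RPMI8226 library (edgeR adjusted p from 0.0628 to 0.146). MRPS11, homologous to bacterial S11, rose in KMS-11 from 31.7 and 34.0 to 50.1 and 58.4 CPM (0.72 ± 0.12, edgeR adjusted p = 0.000131), and in RPMI8226 it stayed between 19.7 and 22.3 CPM.

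The promoters of the 3 members with the largest average falls and the 3 with the largest rises that have an entry in the RefSeq table (GRCh38.p14) are shown next, so that members which moved in opposite directions can be read side by side. Each runs 5′ to 3′ on the gene's strand, from 250 bases before the RefSeq start to 30 bases after it, 280 bases in all, and all 6 genes lie on the minus strand. Capitals mark the motif letters described after them. The windows are chr11:66438819-66439098 (MRPL11), chr7:43869488-43869767 (MRPS24), chr1:36464355-36464634 (MRPS15), chr17:50373155-50373434 (MRPL27), chr3:15065286-15065565 (MRPS25) and chr17:75904855-75905134 (MRPL38). The RefSeq start of MRPL11 lies 27890 bases inside the outermost start that GENCODE gives.
MRPL11: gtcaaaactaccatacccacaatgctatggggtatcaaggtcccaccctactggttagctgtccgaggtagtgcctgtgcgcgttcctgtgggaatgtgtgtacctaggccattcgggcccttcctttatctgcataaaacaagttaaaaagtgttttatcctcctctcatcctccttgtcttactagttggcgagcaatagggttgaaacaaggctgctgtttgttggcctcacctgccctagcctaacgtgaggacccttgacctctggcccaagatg
MRPS24: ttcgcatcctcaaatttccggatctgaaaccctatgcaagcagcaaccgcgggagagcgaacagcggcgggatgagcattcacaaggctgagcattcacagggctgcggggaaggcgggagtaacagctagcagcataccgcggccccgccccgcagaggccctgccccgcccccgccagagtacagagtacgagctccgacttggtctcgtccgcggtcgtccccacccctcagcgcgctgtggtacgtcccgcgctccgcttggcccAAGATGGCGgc
MRPS15: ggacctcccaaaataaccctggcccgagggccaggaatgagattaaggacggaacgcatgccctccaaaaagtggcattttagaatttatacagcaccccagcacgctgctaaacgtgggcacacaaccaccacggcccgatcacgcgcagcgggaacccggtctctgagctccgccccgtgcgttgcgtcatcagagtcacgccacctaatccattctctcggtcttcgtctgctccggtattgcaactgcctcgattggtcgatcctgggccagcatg
MRPL27: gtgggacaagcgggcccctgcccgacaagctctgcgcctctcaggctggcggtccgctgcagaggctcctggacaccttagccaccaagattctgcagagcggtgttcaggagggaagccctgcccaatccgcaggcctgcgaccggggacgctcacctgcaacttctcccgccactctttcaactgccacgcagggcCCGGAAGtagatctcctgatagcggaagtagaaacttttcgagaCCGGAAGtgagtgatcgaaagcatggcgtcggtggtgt
MRPS25: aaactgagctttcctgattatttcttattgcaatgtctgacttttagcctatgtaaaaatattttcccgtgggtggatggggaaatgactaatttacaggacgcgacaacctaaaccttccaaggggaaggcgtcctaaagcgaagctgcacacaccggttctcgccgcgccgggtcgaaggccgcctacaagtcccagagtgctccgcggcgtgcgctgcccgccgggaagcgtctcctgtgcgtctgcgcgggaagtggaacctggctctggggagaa
MRPL38: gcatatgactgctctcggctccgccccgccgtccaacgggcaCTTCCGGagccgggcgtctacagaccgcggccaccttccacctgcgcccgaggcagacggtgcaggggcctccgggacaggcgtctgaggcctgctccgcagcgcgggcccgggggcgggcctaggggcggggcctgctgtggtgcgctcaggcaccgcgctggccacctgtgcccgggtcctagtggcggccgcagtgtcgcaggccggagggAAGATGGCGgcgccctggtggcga

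The promoters were searched on both strands, from 250 bases before to 50 after the start (300 bases), for 4 sets of letters. These were CCGGAAG for ETS factors such as GABP, AAGATGGCG for YY1, for NRF1 the palindrome of GCGCA joined without a gap to TGCGC, and CACGTG, the E-box read by MYC with MAX. None of these letters contains another. Of the 78 members, 69 have an entry. CCGGAAG was in 29 of the 69 members (42.0%), in 10.7% of all 27305 promoters of the table and in 18.2% of the 11428 promoters of tested protein-coding genes. It occurred in 9 of 29 members that were lower on average, in 5 of 10 that were higher and in 15 of 30 that were not called. The MRPL27 promoter holds it in 2 places, beginning 52 and 8 bases before the start, and that of MRPL38 once on the opposite strand, shown as CTTCCGG. AAGATGGCG was in 13 of 69 members (18.8%), against 1.85% of all promoters and 3.69% of those of tested protein-coding genes. It lies 20 bases after the start in MRPS24, which fell, and 7 bases after it in MRPL38, which rose. The NRF1 palindrome was in 1 member (1.45%, against 1.36% and 2.20%). CACGTG was in 6 (8.70%, against 7.43% and 9.72%), of which 5 were lower and 1 was not called. MRPL11, MRPS15 and MRPS25 hold none of these letters in the window. A match is a description of the letters and not a measured binding site.

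The response to JQ1 differed between the lines for 19 of 78 members, 14 of the large and 5 of the small subunit (edgeR F test, adjusted p under 0.05), against 30.1% of all genes tested. In pairwise differences, 15 members (19.2%) changed more negatively in KMS-12 than in KMS-11 and 0 more positively, against 9.87% and 10.1% of all genes. RPMI8226 was more positive than KMS-12 for 12 members (15.4%) and more negative for 1, against 12.3% and 11.1% of all genes. Against KMS-11 it was more positive for 3 and more negative for 2 (6.7% and 4.72% of all genes). The 19 became 9 to 12 without any 1 of the KMS-12 libraries or without KMS-11 JQ1 replicate 2, and 65 with library size alone (48.0% of all genes).

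MRPS33 differed between the lines with the smallest p of the members. The gene (ENSG00000090263, chr7:141002610-141015228, minus strand) encodes a small-subunit protein without a bacterial counterpart. It had 36.0 and 26.3 CPM with DMSO and 48.7 and 53.0 with JQ1 in KMS-11, 30.5 and 33.5 against 24.8 and 21.6 in KMS-12, and 24.1 and 24.1 against 32.8 and 35.8 in RPMI8226. It thus rose in KMS-11 (0.71 ± 0.14) and RPMI8226 (0.51 ± 0.14) and fell in KMS-12 (-0.46 ± 0.14), with no overlap in any line (edgeR adjusted p = 0.000547, 0.0102 and 0.0119, and 0.000396 for the difference between lines). The RPMI8226 call of MRPS33 was lost without RPMI8226 DMSO replicate 1 (0.0565), DMSO replicate 2 (0.0607) or JQ1 replicate 2 (0.0706), and the KMS-12 call without KMS-12 DMSO replicate 2 (0.0968) or JQ1 replicate 2 (0.138).

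MRPL32 (ENSG00000106591, chr7:42932200-42948958, plus strand), homologous to bacterial L32, is matured by the m-AAA protease of the inner membrane before it joins the ribosome. It had 26.6 and 25.3 CPM against 29.9 and 30.8 in KMS-11, 23.5 and 24.2 against 35.4 and 37.2 in KMS-12, and 26.96 and 29.4 against 21.7 and 21.0 in RPMI8226. KMS-12 was higher (0.60 ± 0.12, edgeR adjusted p = 0.000318) and RPMI8226 lower (-0.40 ± 0.12, edgeR adjusted p = 0.0143), again without overlap, and the change differed between lines (edgeR adjusted p = 0.000511). With library size alone the KMS-12 change of MRPL32 turned to -0.17 and the difference between lines no longer passed the test (edgeR adjusted p = 0.157). The RPMI8226 call was lost without either RPMI8226 JQ1 library (0.0562 and 0.0796) or DMSO replicate 2 (0.130). MRPL42, a protein without a bacterial counterpart, had 66.3 and 58.9 CPM against 56.9 and 54.3 in KMS-11, 154 and 143 against 110 and 104 in KMS-12, and 77.3 and 83.9 against 95.6 and 108 in RPMI8226. It fell in KMS-12 (-0.47 ± 0.10, edgeR adjusted p = 0.00073) and rose in RPMI8226 (0.33 ± 0.10, edgeR adjusted p = 0.0157), with an adjusted p of 0.000882 for the difference (edgeR). The RPMI8226 rise of MRPL42 was lost without RPMI8226 DMSO replicate 1 (edgeR adjusted p = 0.145) or JQ1 replicate 2 (0.144).

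MRPL37, MRPL13 and MRPL39 differed in size instead of direction. MRPL37, without a bacterial counterpart, had 63.5 and 72.1 CPM against 48.3 and 51.0 in KMS-11, 78.9 and 67.2 against 40.2 and 37.5 in KMS-12, and 58.1 and 57.9 against 54.4 and 60.1 in RPMI8226. Both KMS lines were lower without overlap and RPMI8226 overlapped, with changes of -0.45 ± 0.11, -0.91 ± 0.11 and -0.02 ± 0.11 (edgeR adjusted p for the difference 0.000853). MRPL13, homologous to bacterial L13, had 42.3 and 44.5 CPM against 22.9 and 22.9 in KMS-12, while all its KMS-11 and RPMI8226 libraries lay between 15.4 and 19.8 (edgeR adjusted p for the difference 0.00332). MRPL39 followed with 0.00503 (edgeR). In all 3 genes the mean DMSO level was highest in KMS-12. MRPL35, homologous to bacterial L35, was called higher in KMS-11 (0.36 ± 0.12, edgeR adjusted p = 0.0276) and lower in KMS-12 (-0.33 ± 0.12, edgeR adjusted p = 0.0392), which makes it the fourth member with opposite calls beside MRPS33, MRPL32 and MRPL42. Its KMS-11 call was lost without KMS-11 DMSO replicate 1 (edgeR adjusted p = 0.145) or JQ1 replicate 2 (0.279) and its KMS-12 call without any 1 KMS-12 library or RPMI8226 DMSO library (0.0534 to 0.224). With library size alone the KMS-11 call of MRPL35 was lost as well (0.10, edgeR adjusted p = 0.541). The KMS-12 call of MRPL35 was also lost with no filter beyond 1 read (edgeR adjusted p = 0.0651) and with DESeq2 (DESeq2 adjusted p = 0.0685). Over all genes tested, 5.06% had opposite calls.

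**Figure D4:**
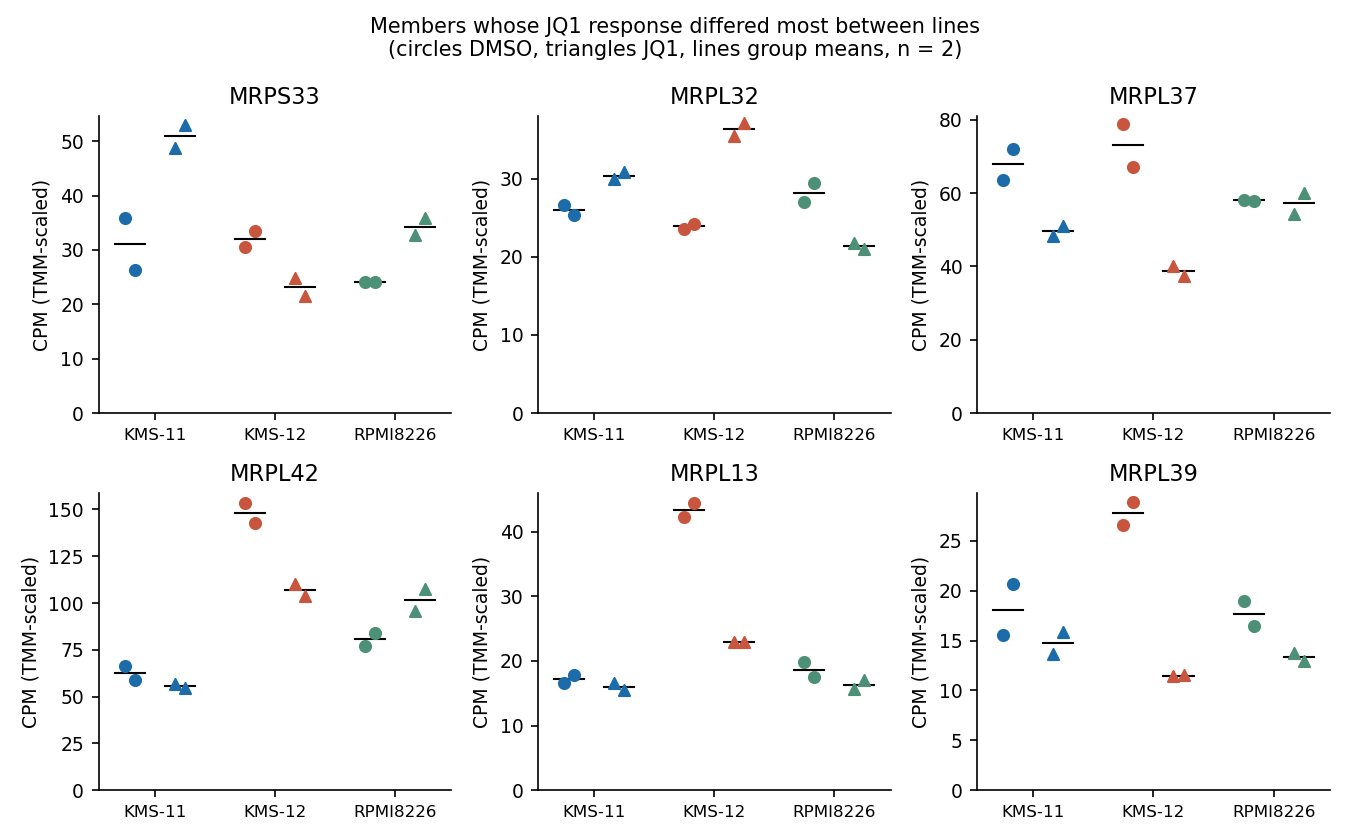
TMM-scaled CPM in each library (vertical axes from 0) of the 6 members with the smallest p for a difference of the JQ1 response between lines, with DMSO as circles, JQ1 as triangles and group means as lines. MRPS33 rises in KMS-11 and RPMI8226 and falls in KMS-12, and MRPL13 goes from 42.3 and 44.5 to 22.9 CPM in both JQ1 libraries of KMS-12.

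Many members lie close to other genes, and the counting is not known to have used the strand. Of the 78, 41 share exon bases with another gene on either strand and 16 on the same strand. The 37 without such an overlap gave 15 lower and 5 higher in the average (median -0.10) and 20 lower and 0 higher in KMS-12 (median -0.33). Of all genes tested, 26.7% were lower and 22.3% higher in the average (median -0.10), and 25.7% and 20.2% in KMS-12 (median -0.06). All 5 members called higher in KMS-12 thus share exon bases with another gene, as do 41 of all 78 members. The part of shared reads in these calls was not tested. The shared part on either strand is 41.1% in MRPL38, 22.2% in MRPS25, 13.5% in MRPS14, 9.61% in MRPS6 and 0.679% in MRPL32.

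Other genes of mitochondrial translation were counted from lists of known components. On the TMM scale, 26.7% of all genes tested were lower and 22.3% higher in the average, with a median of -0.10. With library size alone, 44.1% of all genes tested were lower and 9.01% higher in the average, with a median of -0.43. The 6 mitochondrial ribosomal proteins with other symbols gave 1 lower (GADD45GIP1, -0.48 ± 0.15, edgeR adjusted p = 0.0109) and 2 higher, DAP3 (0.28 ± 0.05, 0.000216) and PTCD3 (0.15 ± 0.05, 0.0201). GADD45GIP1 belongs to the large subunit, DAP3 and PTCD3 to the small. The list gave 4 lower and 0 higher with library size alone, with DAP3 at -0.07 and PTCD3 at -0.21, and the PTCD3 call was also lost without any 1 of 5 libraries (edgeR adjusted p up to 0.0603). Of 28 assembly factors of the mitochondrial ribosome, 5 were lower and 14 higher (median 0.19). MTERF3 (0.74 ± 0.08, edgeR adjusted p = 5.73e-07) and RBFA (0.61 ± 0.08, 6.66e-06) were higher and RCC1L (-0.67 ± 0.08, 7.58e-07) lower. With library size alone the list of assembly factors gave 14 lower and 3 higher. Its median relative to all genes went from 0.30 to 0.27. Of 20 translation factors, 7 were lower and 4 higher (median -0.02), and 13 and 1 with library size alone (median -0.37). METAP1D, the mitochondrial methionine aminopeptidase, fell from 28.1 to 4.22 CPM in KMS-12, from 17.9 to 2.88 in RPMI8226 and from 13.6 to 1.82 in KMS-11 (group means, average change -2.76 ± 0.12, edgeR adjusted p = 5.18e-12). MTFMT, which formylates the initiator methionine, rose (1.21 ± 0.09, edgeR adjusted p = 1.75e-09), and TACO1, an activator of MT-CO1 translation, fell (-0.53 ± 0.09, edgeR adjusted p = 9.76e-05). Of 20 mitochondrial aminoacyl-tRNA synthetases and amidotransferase subunits, 7 were lower and 5 higher (median -0.03), and 13 and 0 with library size alone (median -0.38). Among them QRSL1 (-0.81 ± 0.10, edgeR adjusted p = 2.68e-06) and YARS2 (-0.82 ± 0.12, 9.44e-06) fell and CARS2 (0.40 ± 0.06, 8.55e-06) rose, a call lost with library size alone.

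The messages that the mitochondrial ribosome translates were mostly higher under JQ1. Of 13 messages of mitochondrial DNA, 12 were higher and 0 lower in the average (median 0.54), 13 higher in KMS-12 (median 1.05), 5 higher and 1 lower in KMS-11 (median 0.25) and 0 called in RPMI8226 (median 0.23). Of all genes tested, 22.3% were higher and 26.7% lower in the average, and 20.2% and 25.7% in KMS-12. The shares were 17.3% and 21.2% in KMS-11 and 13.6% and 18.6% in RPMI8226. MT-ATP8, for a subunit of ATP synthase, changed by 0.75 ± 0.08 (edgeR adjusted p = 1.82e-06), MT-ND5, for complex I, by 0.72 ± 0.09 (7.74e-06) and MT-CYB, for complex III, by 0.65 ± 0.08 (5.9e-06). With library size alone 6 messages were higher and 1 lower in the average, 4 were higher in KMS-12 (median 0.28), the KMS-11 median was -0.01, and the list's average median relative to all genes went from 0.65 to 0.62. The 2 mitochondrial ribosomal RNAs summed to at most 9.83 CPM in a group, in libraries made from RNA depleted of ribosomal RNA, and they allow no comparison. Why they were so low was not tested. Of 21 genes of mitochondrial DNA upkeep and transcription, 3 were lower and 9 higher (median 0.06), led by the polymerase subunits POLG (0.94 ± 0.05, edgeR adjusted p = 5.58e-11) and POLG2 (0.66 ± 0.07, 2.08e-07), with the helicase SUPV3L1 lower (-0.50 ± 0.08, 1.96e-05). The split of this list turned to 13 lower and 2 higher with library size alone (median -0.29), while its median relative to all genes went from 0.16 to 0.14.

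Cytosolic ribosomal protein genes, 77 in number, gave 63 lower and 3 higher in the average (median -0.31), against 26.7% and 22.3% of all genes. RPS19 (-0.91 ± 0.06, edgeR adjusted p = 6.5e-10), RPL13A (-0.75 ± 0.06, 8.45e-09) and RPL22 (-0.68 ± 0.06, 2.17e-08) fell. The list gave 60 lower and 1 higher in KMS-11 (median -0.55), 41 and 0 in KMS-12 (median -0.29) and 23 and 0 in RPMI8226 (median -0.19). Scaled by library size alone it gave 74 lower and 0 higher in the average, with medians of -1.06 (KMS-12), -0.81 (KMS-11) and -0.22 (RPMI8226). The line with the lowest median of this list was thus KMS-11 with TMM and KMS-12 with library size alone. For the mitochondrial members it was KMS-12 on both scales (-0.28 and -1.05). With library size alone the median of all genes was itself -0.82 in KMS-12 and -0.25 in KMS-11. Relative to all genes, the cytosolic list was lowest in KMS-11 on both scales (-0.55 and -0.56). Its relative medians were -0.23 and -0.24 in KMS-12 and -0.17 on both scales in RPMI8226.

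**Figure D5:**
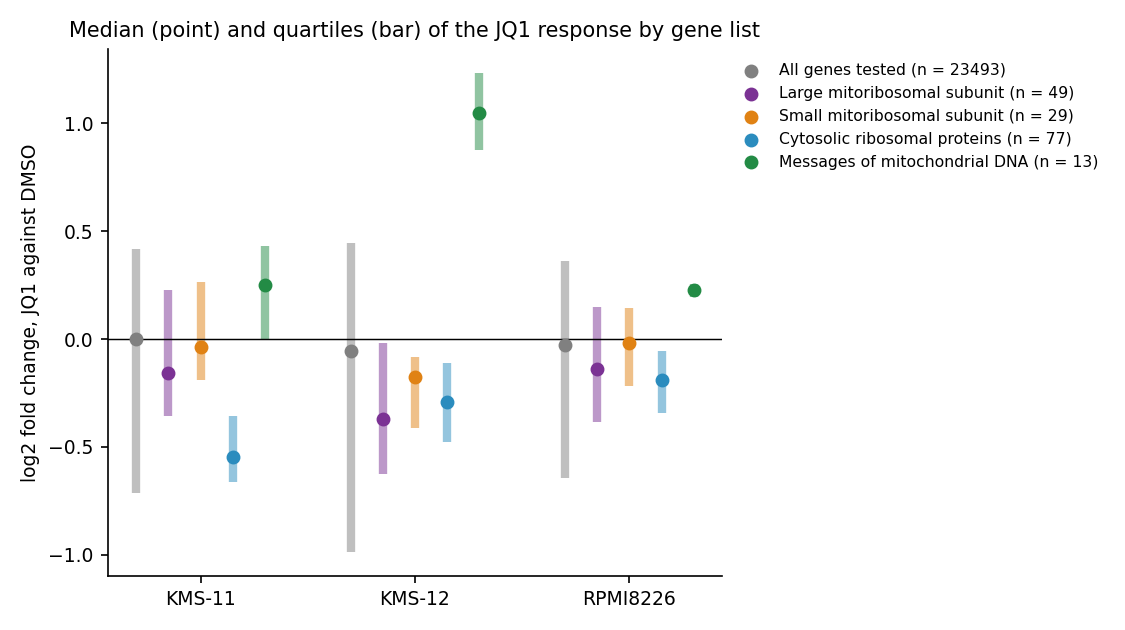
Median (point) and quartiles (bar) of the log2 fold change of JQ1 against DMSO (vertical axis) in each line for all 23493 genes tested, the 49 large-subunit and 29 small-subunit members, 77 cytosolic ribosomal protein genes and 13 messages of mitochondrial DNA. In KMS-12 the large-subunit median is -0.37 and that of the mitochondrial messages 1.05, and in RPMI8226 the quartiles of the latter are hidden by the point.

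Of 11 known regulators of nuclear genes for mitochondrial proteins, 6 were lower and 2 higher in the average, and 10 and 0 with library size alone. For this list and the next 2, the shares of all genes were 26.7% lower and 22.3% higher. With library size alone they were 44.1% and 9.01%. GABPA and GABPB2, subunits of the ETS factor GABP, fell by -0.37 ± 0.06 (edgeR adjusted p = 2.84e-05) and -0.68 ± 0.07 (1.79e-07). The third subunit gene, GABPB1, gave -0.09 ± 0.07 (0.299). NRF1 rose (0.48 ± 0.08, edgeR adjusted p = 4.53e-05) and HCFC1 rose (0.19 ± 0.07, 0.033). With library size alone NRF1 was at 0.13 and no longer called, and HCFC1 turned to -0.16 and was called lower (edgeR adjusted p = 0.0414). The HCFC1 rise was called under 9 of 21 alternatives. It was lost without any 1 of 7 libraries, with RLE scaling (edgeR adjusted p = 0.0516) and with DESeq2 (0.0614). It was also lost with library size without MALAT1 and NEAT1 (edgeR adjusted p = 0.314) and among genes with a mean of at least 10 CPM (0.105). MYC fell (-0.64 ± 0.11, edgeR adjusted p = 0.000415), as did the coactivators PPARGC1A (-1.18 ± 0.36, 0.0163), PPARGC1B (-0.43 ± 0.08, 0.00021) and PPRC1 (-0.29 ± 0.07, 0.0011), with PPARGC1B going from 18.9 to 6.66 CPM in KMS-12 and from 45.1 to 58.3 in RPMI8226. YY1 gave -0.02 ± 0.05 (edgeR adjusted p = 0.822) and ESRRA 0.11 ± 0.07 (0.242). GABPB1 (-0.44), YY1 (-0.37) and ESRRA (-0.25) were called lower with library size alone. The PPARGC1A call did not hold on leaving out DMSO replicate 1 or either JQ1 library of KMS-12 (edgeR adjusted p from 0.0509 to 0.0817) and with limma-voom (0.101). Of 15 genes of mitochondrial stress and proteolysis, 10 were lower and 3 higher (median -0.44), and 13 and 2 with library size alone. The matrix protease LONP1 fell by -1.79 ± 0.06 (edgeR adjusted p = 3.96e-13), the chaperone HSPD1 by -1.10 ± 0.07 (2.53e-10) and CLPP by -1.30 ± 0.08 (2.96e-10), all 3 in each line. Among the genes that rose were SPG7 (0.76 ± 0.06, edgeR adjusted p = 2.76e-09) and AFG3L2 (0.61 ± 0.06, 1.75e-07), the subunits of the protease that matures MRPL32. They lie outside the rule for named genes and were chosen after their values were seen. Of 12 genes used as markers of mitochondrial mass, 5 were lower and 4 higher (median -0.08), with SLC25A6 (-0.54 ± 0.07, edgeR adjusted p = 2.3e-06) and TOMM20 (-0.34 ± 0.06, 0.000126) lower and VDAC3 (0.42 ± 0.07, 6.17e-05) higher. Scaled by library size alone, 9 were lower and 0 higher (median -0.43, beside -0.43 for all genes), and VDAC3 was not called.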

How the data were processed

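Per the labels, total RNA was depleted of ribosomal RNA and made into stranded libraries. The deposited table holds raw read counts made by the authors for 60666 Ensembl gene IDs and 12 libraries. Per the submitters' processing notes, MACS2 and DESeq2 are among the tools and GRCh38.p13 and hg38 among the builds, with no role stated. The sources used here do not give the aligner, counter, annotation or strand setting, so reads of overlapping genes and of near-identical pseudogenes may be misassigned.

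Symbols came from a gene name table (60437 IDs, 99.62%), and classes, exon lengths and GRCh38 positions from GENCODE 29. Members and lists were chosen with earlier results of these data known. In R 4.3.3, edgeR 4.0.16 was run with filterByExpr (minimum count 10, total 15), TMM, a robust quasi-likelihood fit over all 12 libraries with 6 group means, and Benjamini-Hochberg adjustment over 23493 genes, called at 0.05. Contrasts were each line, the mean of the lines, F tests of a difference of response or of DMSO level between lines, and pairwise differences. An SE is the log2 fold change over the square root of F. CPM are TMM-scaled. Depth was 15424512 to 27366499 counts, 3 counts being 0.110 to 0.194 CPM before TMM scaling, which covers counting error only. Replicates differed by more than sampling noise (chi-square per degree of freedom 6.11 to 25.01).

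Named were the 6 largest called falls and rises in the average, 4 and 4 in each line, the 6 members with the smallest p in the F test of response, the 3 highest and 3 lowest DMSO levels per kb, 10 fixed members, up to 3 genes of each other list and all regulators. Other members named were chosen after their values were seen. Alternatives were RLE, library size alone, TMM without immunoglobulin, mitochondrial, histone and 7SK genes, library size without MALAT1 and NEAT1 (chosen after seeing the data), no filter, a mean of 10 CPM, DESeq2 1.42.0, limma-voom (limma 3.58.1), a replicate block, leaving out each library in turn and, for the average, a 1.2-fold threshold test. The code was tested on simulated counts.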

Additional observations from a re-analysis of the deposited data

Results flagged for a closer look

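The response to JQ1 differed between the 3 lines for 19 of the 78 members (edgeR F test over the 3 responses, adjusted p under 0.05), while 30.1% of all genes tested passed the same test. The 6 members with the smallest p were taken. MRPS33 had an adjusted p of 0.000396 (edgeR), rising in KMS-11 and RPMI8226 and falling in KMS-12. MRPL32 had 0.000511 (edgeR), higher in KMS-12 and lower in RPMI8226, and 0.157 with library size alone. The other 5 stayed under 0.05 in all 21 alternatives. MRPL37 had 0.000853 (edgeR), with falls in KMS-11 and KMS-12 and a change of -0.02 in RPMI8226. MRPL42 had 0.000882 (edgeR), falling in KMS-12 and rising in RPMI8226. MRPL13 had 0.00332 and MRPL39 had 0.00503 (edgeR), both with their only call in KMS-12. MALAT1 took 25.7% and 25.8% of counts in the KMS-12 JQ1 libraries, and its part in these differences was not tested.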

How the results depend on the processing

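Counts of members called, subunit medians and 139 results for single genes were recomputed under 21 alternatives, and counts of the other lists under 3. Genes below a mean of 10 CPM have no value under that filter. Of 2908 values for single genes, 2733 kept their direction and side of the threshold, 145 lost the call, 18 gained it and 12 changed sign, 4 of them without a call on either side. With library size alone, 62 members were lower and 0 higher in the average, 37 and 2 in KMS-11 and 71 and 0 in KMS-12, 65 responses differed between lines and 17 members were lower in all 3. The KMS-12 rises of MRPL38 (-0.012), MRPL32 (-0.17), MRPS25 (-0.21) and MRPS6 (-0.29) then changed sign, as did the average changes of DAP3 (-0.074), PTCD3 (-0.21), HCFC1 (-0.16), ESRRA (-0.25) and, uncalled, MRPS36 (-0.17). With library size without MALAT1 and NEAT1, higher calls numbered 7 in the average and 1 in KMS-12, and 38 responses differed. A test against 1.2-fold left 19 lower and 3 higher. Both scalings move the level taken as no change, and the test against 1.2-fold raises the threshold. The part of MALAT1 in these shifts was not tested beyond the change of scaling. Other scalings, filters and tools kept each count within 1.5 times.

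Leaving out each library gave 30 to 35 lower and 10 to 12 higher in the average, 22 to 40 and 3 to 9 in KMS-12, 11 to 19 and 4 to 10 in KMS-11, and 9 to 21 and 1 to 6 in RPMI8226. Lower in all 3 lines were 6 to 11 members. Responses differed for 9 to 24 members and DMSO levels for 56 to 68. Large minus small medians ran from -0.12 to -0.030 in the average, -0.19 to -0.11 in KMS-12, -0.19 to -0.05 in RPMI8226 and -0.14 to -0.081 in KMS-11. Such a fit takes the lone library left in a group to vary as the others do.

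Replicate numbers were not treated as pairs: the labels do not tie them together, and deviations of same-numbered libraries correlated by 0.42 in RPMI8226, 0.19 in KMS-11 and 0.09 in KMS-12 over 9587 genes. A replicate block gave 8 higher in KMS-12 and kept the other counts within 1.5 times. Depth limits MRPL53 and MRPS24 most. With 2 libraries a group, single-line calls rest on few residual degrees of freedom.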

Other observations

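By the outermost GENCODE starts, 25 members start within 1000 bases of another protein-coding gene transcribed the other way, forming 25 pairs, of which 23 were tested. Both genes have a RefSeq start in 18 pairs, and by those starts 14 lie within 1000 bases. The exceptions are MRPL36 with NDUFS6 (1570 bases), MRPL52 with SLC7A7 (10096), MRPL11 with PELI3 (27479) and MRPS22 with PRR23A (337726). In 4 pairs both genes were lower in the average of the lines (edgeR adjusted p under 0.05): MRPL11 with PELI3, which are near each other by the GENCODE starts alone, MRPL13 with MTBP, MRPL43 with TWNK, the helicase of mitochondrial DNA, and MRPL49 with FAU, which encodes a protein of the cytosolic small ribosomal subunit. In another 4 the calls were opposite. MRPL27 changed by 0.46 and its neighbour EME1, a subunit of a DNA repair nuclease, by -1.202 ± 0.13. MRPL10 changed by -0.23 and LRRC46 by 1.21 ± 0.18, MRPS18C by -0.21 and HELQ by 0.28 ± 0.07, and MRPS34 by -0.26 and EME2 by 0.64 ± 0.06. No pair was higher on both sides. Taken singly, 34 of 78 members were lower and 11 higher, and of all genes tested 26.7% were lower and 22.3% higher. Pairs of other genes were not counted, so these numbers have no share of pairs to stand beside. MRPL46 and MRPS11 are themselves such a pair, with GENCODE starts 34 bases apart. MRPS11 rose in the average (0.35 ± 0.07, edgeR adjusted p = 0.000505), and MRPL46 gave 0.19 ± 0.11 (0.199). In KMS-11, MRPS11 changed by 0.72 and MRPL46 by 0.46 (edgeR adjusted p = 0.076).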
